A study of Bos taurus with 16 samples.

Results

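Blastocysts recovered from cows with a mild, hidden inflammation of the uterus were compared with blastocysts from healthy cows. The 5 blastocyst arrays among the 16 arrays of the series were taken by their titles, 3 from donors with subclinical endometritis (SE) and 2 from donors with a healthy endometrium (HE). Of 24016 probe sets that are not controls, 11014 had a log2 signal above 4 on at least 2 of these arrays and entered the tests. They included 6875 with exactly 1 gene symbol, for 5732 genes.

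All donors were among 49 cows (Bos taurus) that had been superovulated and inseminated, and the uterus was flushed on day 7 of the cycle. Immediately before flushing, a brush sample of the endometrium was scored for polymorphonuclear cells, the neutrophils of the inner uterine surface; a share of 0 made a donor HE and any share above 0 made it SE. Each array carried RNA from a pool of 10 embryos, amplified in 2 rounds from 15 ng. Embryos are taken here as pooled by the status of the donor at flushing, as the study design states. The extraction protocol speaks of status at insemination or flushing. The labels name no age or breed, and nothing in them says that pools of a group came from different cows, so p-values measure only the spread between these pools. The protocol speaks of 3 pools per group; the titles of the HE arrays analysed here number them 2 and 3, and they are called replicates 1 and 2.

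The blastocyst is the stage at which the mammalian embryo first holds distinct tissues. The outer trophectoderm pumps fluid into a cavity, will form the embryonic part of the placenta and, in ruminants, secretes interferon tau, the signal that keeps the corpus luteum alive. The inner cell mass, held pluripotent by factors such as POU5F1 and SOX2, will give rise to the embryo itself and sets aside the hypoblast, an epithelium that lays down basement membrane. In pooled whole embryos, fewer cells of a type and less RNA per cell cannot be told apart.

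The arrays carried the transcripts of these tissues. The keratins KRT8 and KRT18, interferon tau (IFNT2) and PAG2, a pregnancy-associated glycoprotein, were above the filter in every pool, as were POU5F1, SOX2 and GATA6, a factor of the hypoblast. GATA4 exceeded it on 1 array (4.28 in HE replicate 2) and HNF4A on 0, and NANOG, CDX2, GATA2, GATA3, TFAP2C and SOX17 had no probe set named here. Some markers of cells that a flush could carry along were at or near the lowest value of the table, 2.20, in all 5 pools. They were S100A8, S100A9 and S100A12 of neutrophils, CD14 of monocytes, and PTPRC and CD3D of leukocytes. So were SERPINA14 of endometrial glands, VIM of stroma and BMP15 of oocytes. HBB of red cells was at most 2.65 on any array and OXTR of endometrium at most 2.58. Less low were MUC1 of epithelium (3.45, but 4.61 in SE replicate 1), ZP2 of the oocyte coat (3.45 to 4.16) and ZP3 (up to 3.11).

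Array medians were 3.08 to 3.12 log2, and 10823 to 10877 probe sets per array were above 4. The mean correlation of an array with the other 4 was lowest for HE replicate 2 (0.950) and highest for SE replicate 2 (0.966). One technical measure differed with the group for some controls. The control probe sets for GAPDH read 5.11 and 4.97 log2 higher at the 3′ end than at the 5′ end in the HE pools and 5.73, 5.47 and 5.85 in the SE pools. For the EF1A control the gap was 1.41 and 2.03 in HE and 2.36, 2.07 and 2.18 in SE. Such gaps grow as RNA is shortened. The GAPDH and EF1A gaps were both wider in each SE pool than in each HE pool. The actin control did not follow. Its 5′ end was at the lowest value of 2.20 on every array. Its 3′ end read 5.81 and 6.92 in HE and 6.02, 6.22 and 6.22 in SE, overlapping. The part of these gaps in the differences reported here was not tested. In addition, 3318 of the 11014 probe sets (30.1%) had exactly the same value on 2 or more of the 5 arrays, against 2.81% in day 7 endometrium, so an SD of 0.00 between pools is a tie in the table and no measure of precision.

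The comparison of SE with HE asked which transcripts of the embryo differed with the uterine status of its donor. No probe set passed: limma called 0 of 11014 (0%) at an adjusted p under 0.05, and the smallest adjusted p was 0.117. At an unadjusted p under 0.05 there were 1029 probe sets (9.34%), against 551 that a flat distribution of p would give. Over genes, each taken at its kept probe set of highest mean, 218 had a higher mean in SE at that level (3.8%) and 258 a lower one (4.5%). For 659 genes each SE pool lay above each HE pool (11.5%), and for 780 each lay below (13.6%), together 1439 (25.1%); over probe sets it was 2752 (25%), 1361 above (12.4%) and 1391 below (12.6%). Differences were small for most transcripts: the median over genes was 0.00 log2, probe sets ran from -0.77 at the 5th percentile to 0.90 at the 95th, and 249 genes differed by more than 1 log2 unit. The median 95% interval of a gene reached 0.58 log2 to either side, which is the precision these pools gave a typical gene. Changes of the filter, the prior, the array weights or the normalization, and leaving out any 1 pool, also gave 0 calls. Without HE replicate 1 the count at an unadjusted p under 0.05 was 1724.

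The count of calls depended on which arrays estimated the spread. When the day 7 endometrium arrays shared that estimate, 115 probe sets passed (1.04%), 66 of them higher and 49 lower in SE; with all endometrium arrays 473 passed (4.29%). These fits were added after the data were seen. The 115 probe sets had a median SD within groups of 0.334 log2 in blastocysts and 0.116 in day 7 endometrium, where 56 of them did not reach the filter. All differences below are therefore given as values, with the adjusted p of the blastocyst fit where one is printed.

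**Figure D1:**
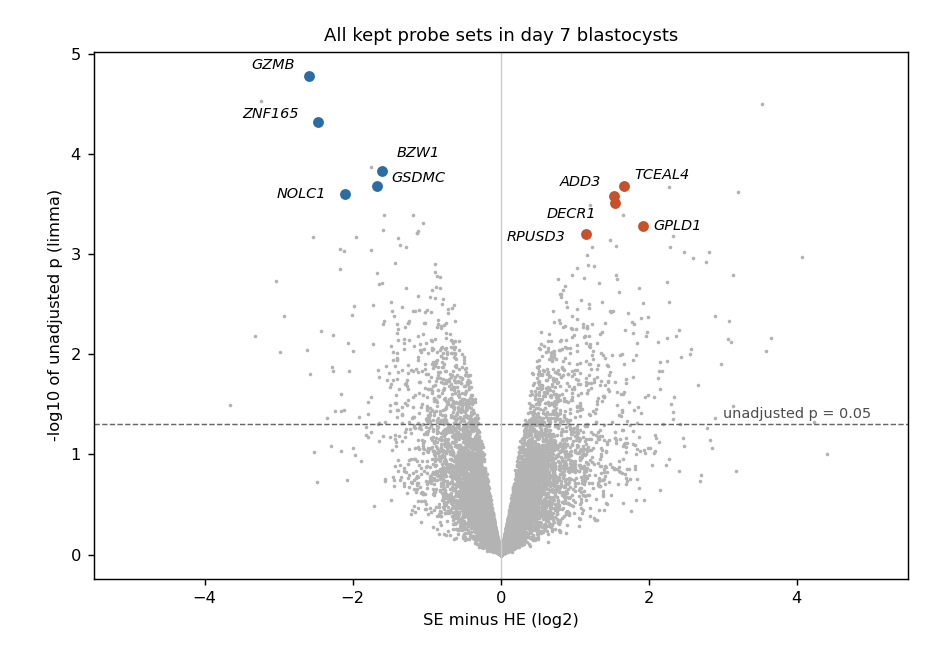
Difference between SE and HE (log2, x axis) against the -log10 of the unadjusted limma p (y axis) for the 11014 kept probe sets, with the 5 genes of smallest p in each direction named. The cloud is spread about 0, GZMB and ZNF165 lie highest on the lower-in-SE side among named genes, and 1029 points lie above the dashed line at 0.05.

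The genes of smallest p with a lower mean in SE were led by GZMB, which encodes granzyme B, a serine protease of cytotoxic lymphocytes. Its probe set Bt.7145.1.S1_at, with the smallest p of all, read 4.92 and 4.67 in the HE pools and 2.20, 2.22 and 2.20 in the SE pools. The SE pools thus lay at the floor of the table, and the HE pools only just above the filter, through which alone the probe set was kept. The difference of -2.59 log2 is therefore taken against the floor and is no exact size. ZNF165, a zinc finger protein (Bt.27496.1.A1_at), stood at 8.62 and 8.45 in HE and at 5.88, 6.08 and 6.22 in SE, a difference of -2.47 (standard error 0.16, adjusted p = 0.131). NOLC1, a phosphoprotein of the nucleolus that takes part in ribosome production (Bt.22211.1.S1_at), had 7.38 and 7.35 in HE and 5.07, 5.58 and 5.15 in SE, a difference of -2.10; its other kept probe set, the one used in the ribosome biogenesis list, differed by 0.38 in the opposite direction. GSDMC, a member of the pore-forming gasdermin family (Bt.28358.1.A1_at), measured 6.11 and 5.95 against 4.18, 4.39 and 4.49 (-1.67). BZW1, a regulator of translation start (Bt.23604.1.S1_at), measured 10.61 and 10.73 against 8.94, 9.17 and 9.07 (-1.61), while its other kept probe set differed by 0.04. In each of the 5, the groups did not overlap and the gap between them was several times the range within either. Picking genes by smallest p favours such separation, and 25% of all probe sets had groups that did not overlap. The adjusted p of NOLC1, GSDMC and BZW1 was 0.243.

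On the higher side, TCEAL4, of a family related to a transcription elongation factor (Bt.4971.1.A1_at), read 6.84 and 6.65 in HE and 8.39, 8.27 and 8.55 in SE. The difference was 1.66 (standard error 0.15, adjusted p = 0.243). ADD3, adducin 3 of the membrane skeleton (Bt.20897.1.A1_at), read 9.95 and 9.80 against 11.56, 11.31 and 11.32 (1.52), but its 2 other kept probe sets differed by 0.08 and 0.16. DECR1, a mitochondrial enzyme in the breakdown of unsaturated fatty acids (Bt.13390.1.A1_at), was below the filter in HE (3.92 and 3.79) and above it in SE (5.49, 5.20 and 5.48), a difference of 1.54; it was kept through the SE pools alone, where it is high. GPLD1, a phospholipase that releases proteins from their membrane anchor (Bt.452.1.S1_at), measured 6.39 and 6.97 against 8.69, 8.55 and 8.54 (1.92). RPUSD3, a mitochondrial pseudouridine synthase (Bt.23235.1.S1_at), measured 7.74 and 7.57 against 8.91, 8.81 and 8.72 (1.15), and its other kept probe set had the opposite sign (-0.96). The SE pools were again all above the HE pools for each probe set named, but for ADD3, RPUSD3, BZW1 and NOLC1 the other probe sets of the gene did not follow. Adjusted p was 0.243 for ADD3, 0.256 for DECR1 and 0.271 for GPLD1 and RPUSD3.

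**Figure D2:**
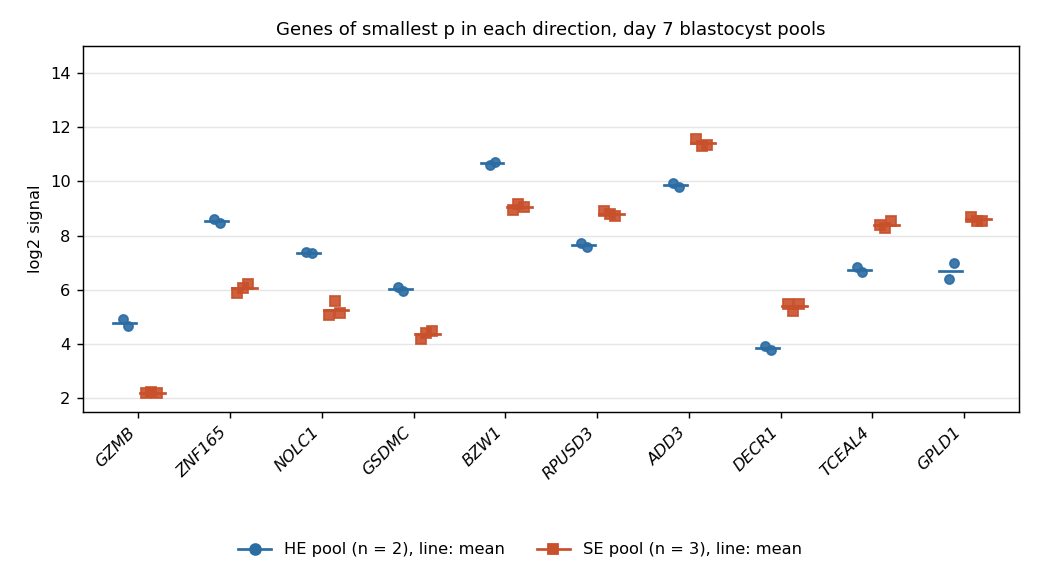
Log2 signal (y axis) of the 5 genes of smallest p in each direction (x axis), one point per pool of 10 embryos, HE in blue circles and SE in orange squares, with lines at the group means. The 3 SE pools and the 2 HE pools form separate clusters for all 10 genes, which the choice by smallest p favours. The SE pools of GZMB are at the floor of 2.20.

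For the lineages, POU5F1 and SOX2 of the inner cell mass had lower means in SE and STAT3 a higher one, and no test passed. POU5F1, the POU-domain factor also called OCT4, read 10.42 and 10.97 in HE and 9.69, 10.36 and 10.05 in SE. The nearest pools of the groups almost met, and the difference of -0.66 had a 95% interval from -1.43 to 0.10 (adjusted p = 0.574). SOX2, its partner on DNA, read 7.82 and 7.18 against 6.66, 7.72 and 6.88, overlapping, with a difference of -0.41 (95% interval -1.50 to 0.67). STAT3, which carries cytokine signals that sustain pluripotency, had a higher mean in SE (0.85 on the probe set used, 1.24 on its other one), with pools overlapping. Of the 30 listed inner cell mass genes 8 were named on the array and 6 kept, 4 with lower and 2 with higher means; 0 passed, and their median difference was -0.09, which turned to 0.02 at most when a pool was left out.

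Among hypoblast genes, GATA6 was nearly level: 14.09 and 14.14 in HE, 14.02, 14.16 and 14.25 in SE. Its difference of 0.03 had a 95% interval from -0.32 to 0.38. Other genes of the list, and of basement membrane, were less even. APOA1, an apolipoprotein of yolk sac endoderm and liver, read 5.38 and 4.81 in HE and 8.69, 6.44 and 7.03 in SE, a difference of 2.29 (95% interval 0.32 to 4.27). COL4A1, a chain of basement membrane collagen, read 11.42 and 11.16 against 11.85, 11.98 and 11.70 (0.56), with -0.02 on a second probe set. NID1, nidogen 1 of the basement membrane, had 6.62 in both HE pools and 9.58, 10.89 and 8.73 in SE, the widest difference among extracellular matrix genes at 3.11. Its HE values are an exact tie, and its adjusted p was 0.403. NID2, its relative, read 7.21 and 8.30 against 8.47, 8.78 and 8.96 (0.98). Secreted RSPO3, an enhancer of Wnt signalling, went the other way: 7.31 and 6.70 in HE, 5.76, 6.07 and 6.27 in SE (-0.97). For APOA1, COL4A1, NID1 and NID2 the SE pools were all above the HE pools, and for RSPO3 all below. Over the list, 13 of 20 hypoblast genes on the array were kept, 0 passed, and the median was 0.11. Wholly above lay 3 (APOA1, COL4A1 and FN1) and wholly below 1 (23.1% and 7.7%, against 11.5% and 13.6% of all genes). NID1 and NID2 belong to the extracellular matrix list.

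Trophectoderm genes differed in both directions. TFAP2A, an AP-2 transcription factor of trophoblast, measured 6.64 and 5.66 in HE and 7.49, 7.36 and 8.04 in SE (1.48, 95% interval 0.45 to 2.51). DLX4, a homeobox factor also expressed in placenta, measured 8.87 and 8.77 against 8.17, 7.60 and 7.68 (-1.00, 95% interval -1.58 to -0.42). Neither overlapped between groups, and adjusted p was 0.425 and 0.403. TEAD4, the factor that starts the trophectoderm programme, had pools that met (7.14 and 8.01 in HE, 6.74, 7.14 and 7.13 in SE; -0.57), and ID2, a trophectoderm inhibitor of differentiation, overlapped with a higher SE mean (0.83). The keratins of the epithelium were nearly level: KRT8 read 7.29 and 7.57 against 7.95, 7.57 and 7.42 (0.22), and KRT18 read 13.83 in both HE pools against 14.37, 14.11 and 13.27 (0.09). KRT19 was less so, at 8.30 and 6.37 in HE and 10.42, 8.36 and 8.32 in SE. SE replicate 1 and HE replicate 2 were its extremes, and the 95% interval of its difference of 1.70 ran from -0.83 to 4.23. Of 19 genes in the list named on the array, 11 were kept, 0 passed and the median was 0.10.

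Of the proteins that trophoblast secretes toward the uterus, IFNT2 and PAG2 varied as much within groups as between them. IFNT2 read 10.46 and 9.36 in HE and 10.76, 8.79 and 8.94 in SE, so the highest and the lowest pool were both SE. Its difference was -0.41 with a 95% interval from -2.42 to 1.61. PAG2 read 7.84 and 6.75 against 8.33, 8.15 and 6.46 (0.35, 95% interval -1.57 to 2.27). These intervals reached about 2 log2 to either side, so a smaller difference in either transcript could not be told from 0. They are not adjusted for the number of probe sets tested. PTGS2 and SSLP1 did separate the groups upward: PTGS2, the inducible prostaglandin synthase, at 10.83 and 10.19 against 12.12, 11.57 and 11.36 (1.17, and 2.08 on its other probe set), and SSLP1 at 7.25 and 7.06 against 8.27, 7.83 and 8.43 (1.03). SPP1, osteopontin, a ligand of integrins, separated them downward, at 6.02 and 6.06 against 4.33, 5.53 and 5.53 (-0.91). Of 29 genes in this list named on the array, 5 were kept and 0 passed; their median of 0.35 ranged from -0.20 to 0.90 when single pools were left out. The 26 kept genes of tight junctions, adhesion and fluid transport had a median of 0.10. Of these genes 3 lay wholly above and 3 wholly below (11.5% each, against 11.5% and 13.6% of all genes). PARD6B, a polarity protein required for cavity formation, was the lowest of them: 5.90 and 5.81 in HE, 4.91, 4.89 and 4.24 in SE (-1.17).

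**Figure D3:**
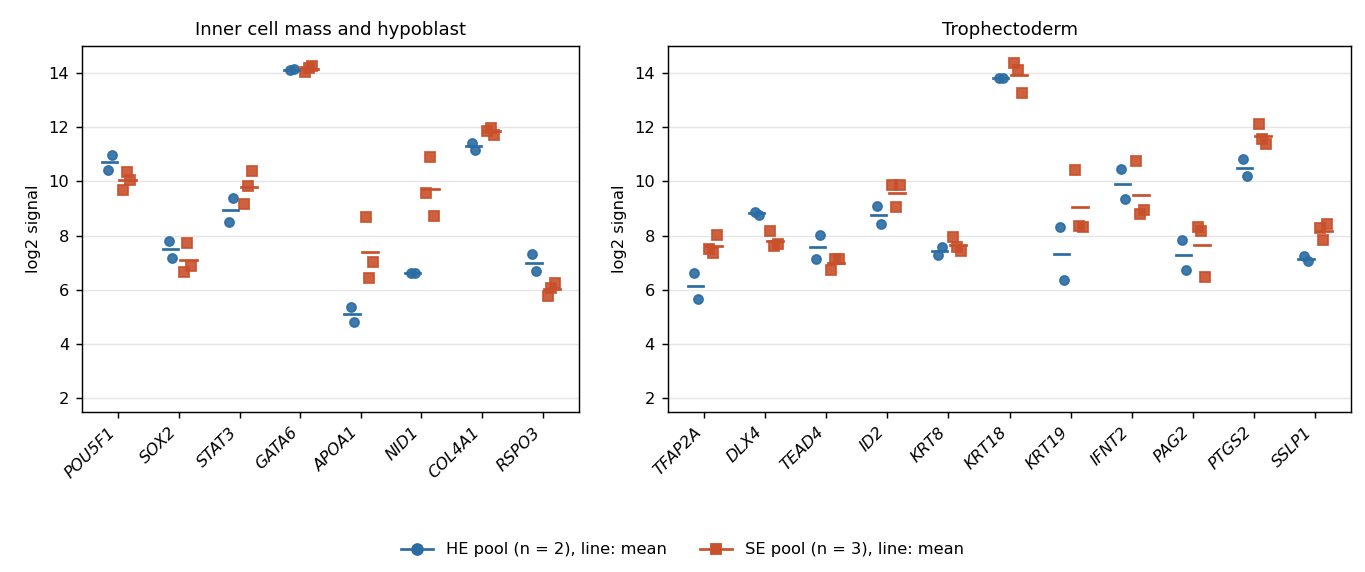
Log2 signal (y axis) of genes of the inner cell mass and hypoblast (left) and the trophectoderm (right), one point per pool, HE in blue circles and SE in orange squares, with lines at the group means. GATA6, KRT8 and KRT18 differ by at most 0.22 log2 between the means, while APOA1, NID1, TFAP2A and PTGS2 have all 3 SE pools above both HE pools.

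Inflammatory signalling was represented in the embryos themselves by 21 kept genes of 47 on the array. Their median difference was -0.17, with 13 lower and 8 higher means in SE, and 0 passed. At an unadjusted p under 0.05, 4 of the 21 were lower and 1 higher, against 4.5% and 3.8% of all genes. Wholly below the HE pools lay 5 and wholly above 2 (23.8% and 9.5%, against 13.6% and 11.5% of all genes). IL6, a cytokine, measured 9.17 and 9.84 in HE and 6.91, 7.61 and 8.61 in SE (-1.80, 95% interval -3.32 to -0.27). IL18, a cytokine of the interleukin 1 family, measured 9.87 and 9.98 against 9.39, 9.40 and 9.29 (-0.56). IRAK4, the kinase that relays signals from Toll-like and interleukin 1 receptors, measured 9.79 and 9.67 against 9.10, 8.59 and 8.70 (-0.93, and -1.06 on its other probe set). RIPK1, a kinase downstream of the tumour necrosis factor receptor, measured 6.18 and 6.49 against 5.65, 5.65 and 4.72 (-0.99). Each of these had its SE pools below its HE pools. IL1RAP, the shared chain of interleukin 1 receptors and outside the list, measured 4.65 and 5.02 against 3.40, 3.55 and 3.41 (-1.38, adjusted p = 0.271), its SE pools under the filter. The exception at that level was PTGS2, with the higher SE values given above.

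Interferon response genes, which cells switch on when an interferon binds its receptor, had 13 of 36 members kept and a median of 0.14, 0 of them past the test. IRF7, a factor that drives interferon genes, was lower in each SE pool (6.46 and 6.31 in HE, 5.89, 5.82 and 5.89 in SE; -0.52). STAT2, which transmits the interferon signal, was higher in each (5.29 and 4.14 against 5.93, 5.40 and 5.91; 1.03). These 2 members of 1 pathway thus had opposite signs.

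Few markers of immune cells were measurable. Of the neutrophil list 1 of 19 genes was kept: SORL1, which is also expressed outside the blood lineage, at 10.19 and 10.43 in HE and 11.06, 11.23 and 11.52 in SE (0.96; 0.17 and 0.72 on other probe sets). It set the summed linear signal of that list, 1262 to 1469 in HE and 2356 to 3030 in SE, while 17 of the 19 genes were below 4 in all pools. Of the macrophage and lymphocyte list 4 of 35 were kept, with a median of -0.46 and a summed signal of 8052 to 8452 in HE and 4930 to 6897 in SE. GZMB was one; CD48, a surface protein of leukocytes, measured 12.67 and 12.64 against 12.23, 12.19 and 11.81 (-0.58); ZAP70 differed by -0.34. LCK, a kinase of T cells, measured 6.63 and 3.34 in HE and 8.17, 8.35 and 7.85 in SE (3.13) on the kept probe set, while 2 other LCK probe sets were at or near the floor in every pool. Its difference ranged from 1.49 to 4.78 when single pools were left out, which shows how much it rested on HE replicate 2. The Fc receptor FCGR2B, which belongs to neither list, measured 9.18 and 8.92 in HE and between 10.44 and 11.28 in SE (1.86, adjusted p = 0.351).

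Other non-embryonic lists had as few kept members. Endometrial epithelium and stroma had 7 of 32, with a median of 0.10 and a summed signal of 2904 to 3922 in HE and 2529 to 3544 in SE. THY1, a surface protein of stroma, was its only member with separated pools (9.74 and 9.60 against 8.47, 9.09 and 8.90; -0.85). Cumulus, red cell and sperm markers had 7 of 28, with a median of 0.28 and a summed signal of 2862 to 2879 in HE and 3294 to 4873 in SE. TNP1, a nuclear protein of spermatids, was at 2.30 and 2.92 in HE and 7.53, 3.32 and 4.19 in SE, where SE replicate 1 stood alone. It was kept through SE pools alone. Oocyte transcripts had 1 of 9, OOEP of the egg cortex, at 5.55 and 5.67 against 6.35, 5.98 and 6.61 (0.70). XIST, the RNA that silences an X chromosome in female cells, was at 12.03 and 12.08 in HE and 12.84, 12.82 and 11.48 in SE, so SE replicate 3 was the lowest pool; all 3 kept probe sets had a difference of 0.32 to 0.46. The part of embryo sex in these pools was not tested; the 9 kept sex-linked transcripts had a median of -0.04.

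Of the enzymes of serine synthesis, PHGDH and PSPH had lower values in each SE pool and PSAT1 overlapped. PHGDH, the first enzyme of the pathway, measured 5.40 and 5.04 in HE and 3.90, 3.43 and 3.33 in SE, a difference of -1.67 (standard error 0.24, adjusted p = 0.329). It was kept through the HE pools alone. PSPH, the last, measured 11.19 and 10.70 against 8.85, 8.17 and 8.18, a difference of -2.54 (standard error 0.30, adjusted p = 0.271). PSAT1, the enzyme between them, stood at 9.95 and 7.93 against 8.76, 9.58 and 8.76 (0.10). Its sign turned when either HE replicate 2 (-0.92) or SE replicate 2 (-0.18) was left out. Of the glycine cleavage system, AMT was level (0.02) and 2 other parts were lower in each SE pool: GLDC (4.18 and 4.69 against 3.01, 3.91 and 3.53; -0.95) and GCSH (13.07 and 13.29 against 12.03, 12.51 and 12.84; -0.72, and -0.74 on its other probe set). GLDC, like PHGDH, was under the filter in SE and was kept through the HE pools alone. The glycine methyltransferase GNMT measured 9.16 and 8.68 against 7.48, 7.58 and 7.97 (-1.25), but -0.33 on its other probe set. MTHFD1, which passes one-carbon units along folate, was the opposite, at 7.75 and 8.14 against 9.45, 9.65 and 8.96 (1.41). Of 16 kept genes in this list, which was chosen after the values were seen, 12 had lower means in SE, against 50.3% of all genes. Of these 16 genes 5 lay wholly below and 1 wholly above, against 13.6% and 11.5% of all genes, and the median was -0.22. MAT2B was among the 5, though its nearest pools almost met (11.714 in HE and 11.711 in SE).

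**Figure D4:**
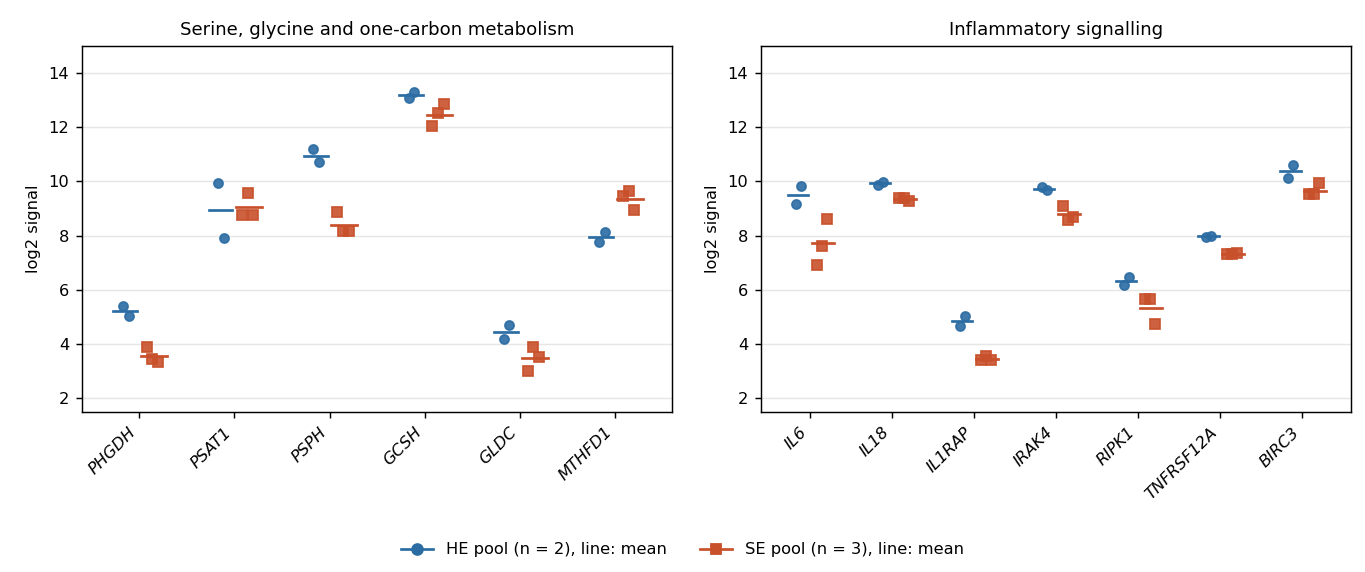
Log2 signal (y axis) of genes of serine, glycine and one-carbon metabolism (left) and of inflammatory signalling (right), one point per pool, HE in blue circles and SE in orange squares, with lines at the group means. PHGDH and PSPH have all SE pools below both HE pools and MTHFD1 all above, while PSAT1 overlaps; the 7 signalling genes shown all have SE pools below HE pools and were picked for that.

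Genes of the mitochondrial respiratory chain leaned to one side by small amounts. All 75 oxidative phosphorylation genes named on the array were kept. Of these 53 had a lower mean in SE (70.7%, against 50.3% of all genes), and the median was -0.14. For 26 each SE pool lay below each HE pool, and for 4 each lay above (34.7% and 5.3%, against 13.6% and 11.5% of all genes). At an unadjusted p under 0.05, 7 of the 75 were lower and 0 higher, against 4.5% and 3.8% of all genes, and 0 passed. ATP5ME of the ATP synthase measured 12.84 and 13.03 in HE and 12.16, 12.22 and 12.44 in SE (-0.66). NDUFA3 of complex I measured 10.81 and 10.84 against 10.29, 9.98 and 10.36 (-0.62). From complex III, UQCR10 differed by -0.44 and UQCRH by -0.42, and from complex IV, COX7C differed by -0.51. COX6C of complex IV was level on the probe set used (0.05), while its other one read 4.38 and 2.72 in HE and 6.30, 6.46 and 7.15 in SE (3.09). The median kept its sign without each pool in turn, from -0.17 to -0.10. The GAPDH and EF1A control gaps between 3′ and 5′ ends differed between the same groups, which holds for every list here. Their part was not tested.

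Ribosomal protein genes also had more lower than higher means. Of 62 cytosolic ones kept, 51 had a lower SE mean (82.3%, against 50.3% of all genes), and the median was -0.07. In this list 18 lay wholly below and 4 wholly above (29% and 6.5%, against 13.6% and 11.5%). Examples are RPL29 (11.58 and 11.61 against 11.03, 11.11 and 10.80; -0.61) and RPS7, whose 3 probe sets disagreed (-0.40, 0.08 and 0.21). Of 67 mitochondrial ribosomal genes kept, 45 had a lower SE mean, 12 lay wholly below and 4 above (17.9% and 6%), and the median was -0.12. MRPL18 measured 9.17 and 9.60 in HE and 8.25, 8.36 and 8.49 in SE (-1.02, adjusted p = 0.388), and MRPS26 differed by -0.85. The tests called 0 in either list. The part of the GAPDH and EF1A control gaps, which differed between the same groups, was not tested. Ribosome biogenesis factors had a median of 0.05 over 44 genes, with 10 wholly above and 6 wholly below. These are 22.7% and 13.6%, against 11.5% and 13.6% of all genes. POLR1B of RNA polymerase I was among those above (0.93). Translation factors and tRNA synthetases were centred on 0.00 over 57 genes, with TARS1 (-0.55), WARS1 (-0.74) and CARS1 (-1.00) lower in each SE pool; the other 2 probe sets of WARS1 differed by -1.12 and 0.08.

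Carbon and lipid metabolism outside the respiratory chain leaned little. The tricarboxylic acid cycle list had a median of 0.08 over 30 genes, with CS, citrate synthase, at 0.49 on 1 probe set and -0.31 on the other. Glycolysis and glucose uptake had -0.07 over 20 genes: GAPDH measured 11.10 and 11.45 against 10.81, 10.88 and 10.51 (-0.54), and PKM measured 5.71 and 6.09 against 6.49, 6.48 and 6.64 (0.64). Cholesterol and fatty acid genes had a median of 0.19 over 41 genes; 28 had a higher mean, 8 lay wholly above and 1 wholly below (19.5% and 2.4%, against 11.5% and 13.6% of all genes), and 0 passed. FDPS, which makes the precursor shared by sterols and prenylated proteins, was the highest of them at 6.70 and 5.72 in HE and 8.39, 7.63 and 7.30 in SE (1.57, 95% interval 0.32 to 2.81). The list median stayed between 0.16 and 0.20 without single pools.

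**Figure D5:**
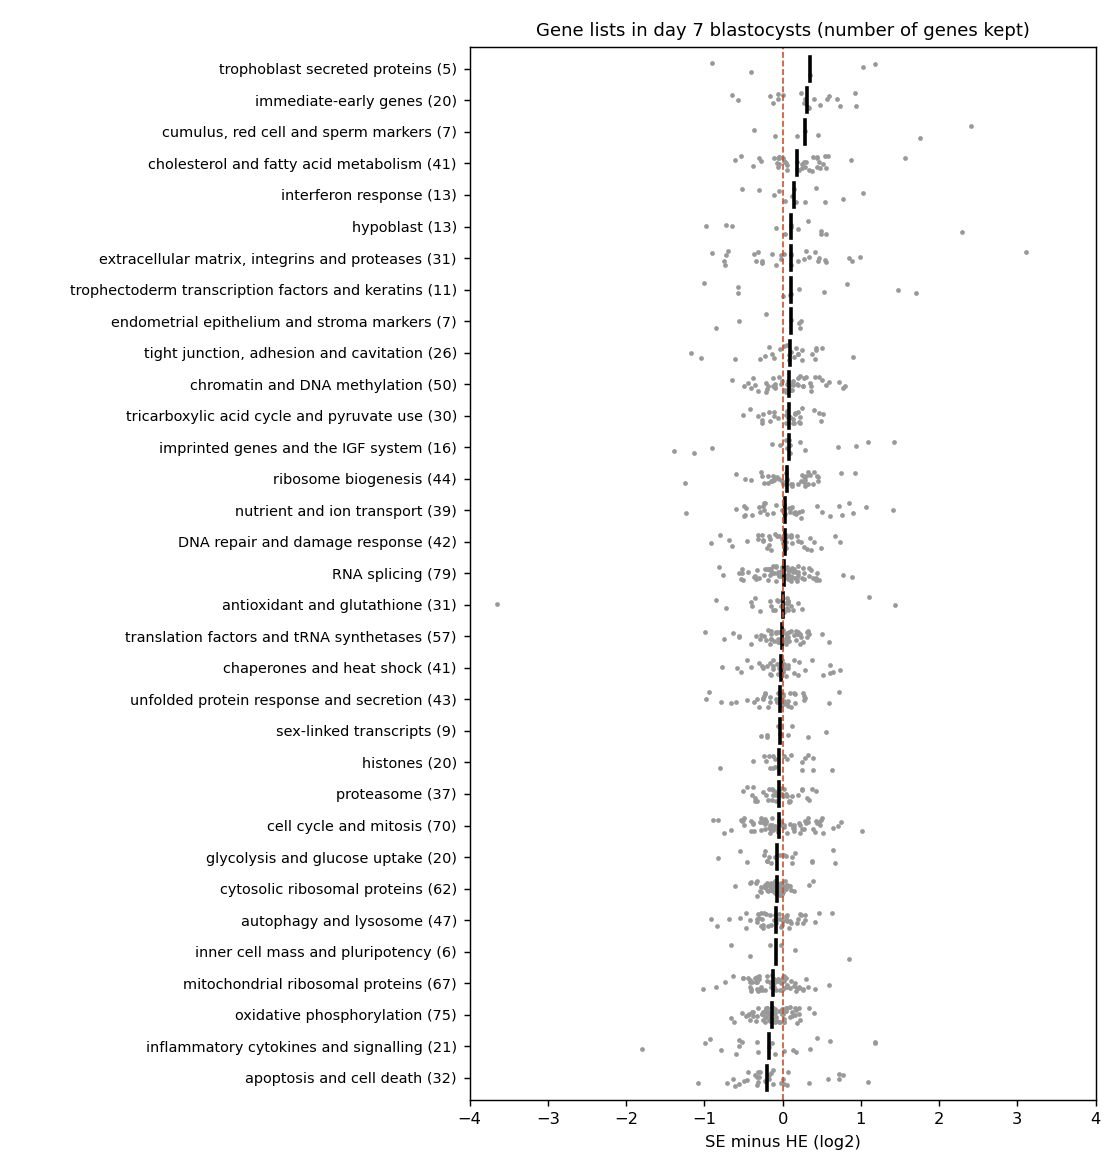
Difference between SE and HE (log2, x axis) of each kept gene in the 33 lists with at least 5 kept genes, the number kept in brackets, with a black bar at the list's median and a dashed line at the median of all genes. List medians lie between -0.20 and 0.35, inside the spread of their own genes.

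Genes of cell death had a median of -0.20 over 32 kept, with 22 lower means in SE (68.8%, against 50.3% of all genes). For 9 the SE pools were wholly below and for 2 wholly above (28.1% and 6.2%, against 13.6% and 11.5% of all genes). At an unadjusted p under 0.05, 5 of the 32 were lower and 1 higher, against 4.5% and 3.8% of all genes, and 0 passed. Members that protect cells and members that kill them were both among the lower ones. BCL2, which blocks apoptosis, differed by -0.55 (-0.03 on its other probe set) and BIRC3, an inhibitor of cell death, by -0.71 (-1.00 on its other). Of those that promote death, BAD read 6.86 and 7.24 in HE and 5.23, 6.40 and 6.26 in SE (-1.08), and TP53INP1, a target of p53, differed by -0.61 (-2.43 on its other probe set). TNFRSF12A, a receptor of the tumour necrosis factor family, read 7.95 and 7.99 against 7.33, 7.32 and 7.36 (-0.63), with 0.00 on another probe set. The executioner caspase CASP6 was the reverse, at 10.39 and 10.22 against 10.93, 10.89 and 11.24 (0.72).

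The lists of protein quality control and antioxidants had medians from -0.09 to 0.01. Chaperones had a median of -0.02 over 41 genes, where DNAJB1 was lower in each SE pool (-0.77, and -0.61 on another probe set) and HSPB1 (0.74) and HSP90AB1 (0.65) were higher. The unfolded protein response list had -0.04 over 43 genes. Of them 6 lay wholly below and 2 wholly above (14% and 4.7%, against 13.6% and 11.5% of all genes). Among the 6, picked for their values, were HERPUD1 of endoplasmic reticulum protein disposal (9.32 and 9.83 against 8.52, 8.67 and 8.70; -0.95), the ubiquitin ligase SYVN1 (9.49 and 9.44 against 8.89, 8.63 and 8.88; -0.66) and the chaperone DNAJB9 (-0.98). Proteasome genes had -0.05 over 37. Autophagy and lysosome genes had -0.09 over 47, and 29 had a lower mean in SE (61.7%). Of the 47, 11 lay wholly below and 3 wholly above (23.4% and 6.4%, against 13.6% and 11.5% of all genes), and 0 passed. Without single pools that median stayed between -0.12 and -0.07. ULK1, the kinase that starts autophagy, read 7.98 and 7.62 against 6.63, 6.96 and 7.06 (-0.92). Antioxidant genes were centred on 0.01 over 31. GSTO1, a glutathione transferase, was the exception in size, at 8.41 and 8.66 in HE and 3.60, 7.10 and 3.94 in SE; the difference of -3.65 had a 95% interval from -6.82 to -0.48, and SE replicate 2 lay far from its group.

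Cell cycle, repair and chromatin lists had medians near 0. Cell cycle and mitosis had a median of -0.05 over 70 genes. Of the 70, 14 lay wholly below and 8 wholly above (20% and 11.4%, against 13.6% and 11.5% of all genes). CDK1, the kinase that drives entry into mitosis, was lower in each SE pool (-0.66). POLD2, a DNA polymerase subunit (1.01), and MCM4 of the replication helicase (0.75) were higher. DNA repair had 0.02 over 42, with FANCI at 0.74. Histones had -0.04 over 20, with the variant MACROH2A1 at 0.63, and splicing 0.02 over 79, with SNRNP70 at 0.78. Of the 79 splicing genes 14 lay wholly below and 8 wholly above (17.7% and 10.1%). Chromatin and DNA methylation had 0.08 over 50, and 0 passed. Of these genes 10 lay wholly above and 4 wholly below (20% and 8%, against 11.5% and 13.6% of all genes). ARID1A, a remodelling subunit (0.73, and 0.46 on another probe set), and the deacetylase HDAC6 (0.77) were among those above.

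Imprinted genes, which are expressed from 1 parental copy and are studied in embryos for their sensitivity to the environment, had 16 of 35 kept and a median of 0.08, with 0 passing. IGF2R was level at 11.15 and 11.30 in HE and 11.35, 11.34 and 11.16 in SE (0.06, and 0.28 on another probe set). PEG3, a paternally expressed zinc finger gene, read 5.81 and 6.70 against 4.56, 5.24 and 4.81 (-1.39). MEG3, a maternally expressed long RNA, was higher in SE on all 3 kept probe sets (1.09, 2.41 and 2.55). The probe set at 2.41 read 2.95 and 3.13 in HE and 6.18, 4.65 and 5.51 in SE. It was thus kept through the SE pools alone, where it is high. GNAS was lower on all 3 but by unequal amounts, from -0.82 to -0.13. PEG3 had its SE pools below its HE pools, and adjusted p was 0.425.

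Nutrient and ion transporters had a median of 0.03 over 39 genes. The amino acid carriers SLC7A7 (6.94 and 5.69 against 7.68, 7.77 and 7.72; 1.41) and SLC1A5 (9.05 and 10.01 against 7.96, 8.93 and 8.01; -1.23) separated the groups in opposite directions, and SLC39A8, a zinc carrier, differed by 0.85. Extracellular matrix genes had 0.10 over 31, 8 wholly above and 3 wholly below (25.8% and 9.7%, against 11.5% and 13.6% of all genes). Immediate-early genes had 0.31 over 20 with 14 higher means; ZFP36L1 (0.73) and ZFP36 (0.94), which promote decay of short-lived messages, were above the HE pools, and FOS overlapped (11.83 and 10.83 against 12.46, 11.40 and 12.89). Leaving out single pools moved that median between 0.10 and 0.48. The lists whose medians changed sign without 1 of the pools were inner cell mass, trophoblast secreted proteins, endometrial markers, glycolysis, translation, ribosome biogenesis, proteasome, antioxidants, cell cycle, DNA repair, histones, splicing and transport.

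A further comparison asked where the difference between SE and HE in embryos was unlike that in day 7 endometrium. The labels do not link the endometrium arrays to the donors of the embryo pools, so the 2 tissues were not paired. The difference between SE and HE in blastocysts was set against that in day 7 endometrium, measured on 2 HE and 3 SE arrays, without comparing levels between tissues. Of 9546 probe sets above the filter in both, limma called 2 (0.021%), with 807 at an unadjusted p under 0.05. The spread was estimated over the arrays of both tissues. Both probe sets lack a gene name here. In the blastocyst fit alone neither passed (adjusted p = 0.117 for Bt.19118.1.A1_at and 0.243 for Bt.16309.1.S1_at). Both were kept in blastocysts through the SE pools alone, where they are high. Bt.19118.1.A1_at read 3.14 and 2.99 in HE and 6.32, 6.88 and 6.57 in SE blastocysts, and its SE minus HE difference was 3.53 there and 0.12 in endometrium (adjusted p of the contrast 0.0307). Bt.16309.1.S1_at was at the floor of 2.20 in both HE pools and at 5.11, 5.17 and 5.93 in SE, with differences of 3.21 and 0.18 (adjusted p = 0.0477), of which the first is taken against the floor and rests on an exact tie. It was the only probe set at the floor throughout HE and above the filter throughout SE, and 0 had the reverse pattern. The next genes by p were PSPH, lower in SE embryos and 0.47 higher in SE endometrium (adjusted p = 0.0782), and BZW1 (-0.07 in endometrium, adjusted p = 0.0868). The number of calls moved with single arrays: 63 without blastocyst HE replicate 1, 1 without blastocyst HE replicate 2, 5 without SE replicate 2, and 0 without any 1 of the 5 endometrium arrays.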

How the data were processed

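The deposited table holds log2 signals that the authors made from Affymetrix bovine arrays; per the submitters' processing notes GCRMA and limma were used, with no version, role or order named. The sources used here do not say whether tissues were normalized together, so no level was compared between them. Precision is limited by how many arrays there are. The scans were not used. Groups came from the titles. In R 4.3.3 with limma 3.58.1, group means were fitted to the 5 blastocyst arrays for the 11014 probe sets above 4 on at least 2 arrays (112 controls left out), with empirical Bayes without trend, two-sided tests and Benjamini-Hochberg adjustment over all of them at 0.05. The script was tested on simulated data. Blastocysts and day 7 endometrium were compared by the interaction term over 10 arrays. Gene names came from the platform annotation supplied (1 symbol for 13292 probe sets, several for 86, none for 10638). The 36 gene lists are described by counts and medians, with 1 probe set per gene, the kept one of highest mean; no set test was made.

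Genes named were to be the 15 largest rises and falls among those passing, filled to 5 per direction by smallest p, list members that passed (up to 2 per direction), and 13 set lineage genes. As 0 passed, the other genes named were chosen after their values were seen. The comparison, members and lists were chosen with earlier results of these data known. Alternatives covered the filter, the prior, array weights, quantile normalization, gene means, replicate blocks and each pool left out. Plots used Python 3.11.15 and matplotlib 3.10.9.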

Additional observations from a re-analysis of the deposited data

Results flagged for a closer look

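For 2 probe sets the interaction test in limma called the difference between SE and HE unlike in blastocysts and day 7 endometrium. That test estimated the spread over the arrays of both tissues, as did the fit that gave 115 blastocyst calls in place of 0. In the blastocyst fit alone neither probe set passed (adjusted p = 0.117 for Bt.19118.1.A1_at and 0.243 for Bt.16309.1.S1_at). Both had HE blastocyst values below the filter and were kept through the SE pools alone, so their differences are no exact sizes. For the second, the HE pools are tied at the floor, with an SD of 0.00 that enters the error of the test. For Bt.19118.1.A1_at the blastocyst difference exceeded the endometrial one by 3.40 log2 (standard error 0.35, adjusted p = 0.0307); all 3 SE blastocyst pools were above both HE pools, while in endometrium the HE pools read 7.23 and 7.68 and the SE pools 7.21, 7.80 and 7.71. For Bt.16309.1.S1_at it exceeded it by 3.02 log2 (standard error 0.35, adjusted p = 0.0477), again with every SE blastocyst pool above every HE pool, and with 10.58 and 10.26 against 10.70, 10.53 and 10.59 in endometrium. Groups of 2 and 3 pools are too small to look for a single outlying sample.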

How the results depend on the processing

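The count of 0 calls between SE and HE blastocysts held under each of these changes: no filter (1054 at an unadjusted p under 0.05), a filter at 5, an intensity trend, array weights, quantile normalization, gene means, and each pool left out (854 to 1724 at an unadjusted p under 0.05). Of those added after seeing the data, spread shared with day 7 endometrium gave 115 calls and with all endometrium 473, with 109 in both; 0 were called among the 7696 probe sets with 5 different values (smallest adjusted p 0.0508). With a replicate block 0 were called by either numbering of the pools, with 970 and 686 at an unadjusted p under 0.05. Same-numbered pools deviated with correlations of 0.11 and 0.09 by replicate and -0.09 and 0.03 by pool number; only 2 pairs exist, so the numbers are not taken as a pairing. The replicate block turned GATA6 to -0.023 and, with pool numbers, KRT18 to -0.13. Leaving out single pools reversed 6 small differences, which ranged from -0.023 to 0.090 for GATA6, -0.13 to 0.41 for KRT18, -1.04 to 0.14 for IFNT2, -0.20 to 0.94 for PAG2, -0.018 to 0.13 for IGF2R and -0.92 to 1.11 for PSAT1. The contrast with endometrium had 24 calls without a filter, 4 with an intensity trend, and 0 to 63 when single pools were left out. Of the 36 lists 20 had a median above 0; without the filter 9 did, since unfiltered members at the floor put medians at 0, and without single pools 16 to 24 did. The cause of the other changes was not tested. Having 2 and 3 pools per group, ties in 30.1% of probe sets and values near the floor limits what these arrays can show.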

Other observations

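Several transcripts not yet described had separated groups and wide differences; they were chosen after their values were seen. Among those higher in SE, TCN2, which carries vitamin B12 into cells, measured 7.49 and 6.95 in HE and 10.39, 8.76 and 9.25 in SE (2.25, and 1.31 on its other probe set). TOB1, which restrains proliferation, measured 5.88 and 5.11 against 8.08, 7.35 and 7.80 (2.25, and 0.69 on its other). BRCC3, a deubiquitinase, measured 7.08 and 7.07 against 8.93, 8.53 and 8.43 (1.55, adjusted p = 0.271). The long RNA DANCR measured 4.93 and 4.30 against 6.81, 7.68 and 7.15 (2.60, adjusted p = 0.289). ZBED5 measured 4.39 and 3.17 against 7.29, 6.47 and 7.00 (3.14). BPIFA1, a secreted protein of airway epithelium, was at 2.70 in both HE pools and at 5.53, 4.16 and 5.52 in SE. Its HE values are an exact tie under the filter, and it was kept through the SE pools alone. All of these are values, since 0 probe sets passed in the blastocyst fit.

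Lower in SE were SOSTDC1, a secreted antagonist of BMP and Wnt signals (5.55 and 7.15 against 3.63, 3.63 and 3.01; -2.93), and CUL5, a scaffold of ubiquitin ligases (7.91 and 8.46 against 6.64, 6.32 and 6.78; -1.60). Their SE pools all lay below their HE pools. SOSTDC1 was under the filter in SE and was kept through the HE pools alone. For some others the probe sets of the gene disagreed: CTNNAL1 differed by -3.32 and 0.46, EHD4 by -2.12 and -0.26, KLC1 by 2.47, 0.73 and -0.64, VCL by 1.56 and -0.17, and EPHX2 by 2.13 and -0.80. PLAC8A differed by 2.29 on a probe set at 3.54 and 2.95 in HE and 5.90, 5.40 and 5.31 in SE, and by 0.00 on its other. The first was kept through the SE pools alone, as was the KLC1 probe set at 2.47. The EHD4 probe set at -2.12 was kept through the HE pools alone, with SE pools at 2.20, 2.66 and 2.75.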
